A study of Mus musculus with 20 samples.

Results

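The genes described here are 40 transcripts of glycolysis and of the cellular response to low oxygen, chosen by symbol from a list of known targets and regulators, and all 40 were found among the 14633 genes of the table. Poly-A RNA was sequenced from tumors of HEPA1-6, an established mouse hepatoma line, which had grown under the skin of C57/BL6 mice for 4 weeks. The 4 groups were control antibody alone, control antibody plus GSK343, an antibody against the chemokine CXCL10, and that antibody plus GSK343, an inhibitor of EZH2, the methyltransferase of Polycomb repressive complex 2. All groups thus carried the same tumor line in the same host strain and received an antibody, and the labels give no genetic change, age, dose or schedule. The labels name 5 samples per group, and 4, 5, 5 and 5 libraries had a column in the table, since control antibody replicate 4 was not analysed here. The series' text speaks of fewer replicates than the labels, and neither states that each sample was a tumor of its own animal; a p-value here therefore reflects the spread among the samples, which may be partly technical. The sample numbers in the labels run from 1 to 10 over both control antibody groups and again from 1 to 10 over both anti-CXCL10 groups, so the antibody and any difference between these numbered sets cannot be told apart.

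Cells sense oxygen through the prolyl hydroxylases of the EGLN family, which mark the alpha subunits of hypoxia-inducible factor (HIF) for destruction while oxygen is present. When oxygen falls, the alpha subunit accumulates, pairs with ARNT and binds the hypoxia response element, whose core is ACGTG or GCGTG. The induced genes take up glucose, run it down to lactate, divert pyruvate away from oxidation and recruit vessels. Much of the control of HIF1A itself lies in protein stability, which RNA levels do not show. Tumors often run glycolysis even where oxygen is present, so the same transcripts mark both states.

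Promoters were searched because many members are known HIF targets, and because many of them moved together from library to library. RefSeq windows on GRCm38.p6 were matched for 35 of the 40 members (50 windows), and the 250 bases before each start were read on both strands. ACGTG, which is also part of the palindrome CACGTG, occurred in the windows of 21 members (60%), against 24.8% of the 9379 tested genes with a window and 18.5% of all 27025 genes with one. GCGTG occurred in 23 members (65.7%), against 49.3% of tested genes and 30.9% of all genes. A gene was counted if any of its windows held the word, so genes with more windows had more chances. By window, ACGTG was in 48% of the members' windows, 21.4% of those of tested genes and 16.6% of all. For GCGTG these shares were 52%, 43.6% and 28.2%. The members' windows also held more G and C, 62.5% of bases on average, against 59.5% in windows of tested genes and 53.2% in all windows, and the part of base composition in these shares was not tested. Many members were listed as HIF targets to begin with, so these shares describe the list.

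The windows below are shown for 5 members, 3 of them (Egln3, Pgk1 and Bnip3) among the 5 whose levels followed the other members most closely. Hk2 followed them little (mean correlation with the other members 0.08), and Pgam1 lay between (0.41). Capitals mark ACGTG, or CACGT where the word lies on the opposite strand, and each sequence reads 5′ to 3′ on the strand of its gene, upstream of the gene as the deposited table bounds it.
Egln3 (chr12:54204081-54204121, minus strand, 229 bases before the start): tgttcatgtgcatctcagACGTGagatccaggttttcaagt
Pgk1 (chrX:106186932-106186972, plus strand, 150 bases before the start): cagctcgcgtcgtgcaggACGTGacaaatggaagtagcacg
Bnip3 (chr7:138909592-138909632, minus strand, 108 bases before the start): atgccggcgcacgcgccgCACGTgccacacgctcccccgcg
Pgam1 (chr19:41911739-41911779, plus strand, 114 bases before the start): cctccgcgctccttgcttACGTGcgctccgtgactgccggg
Hk2 (chr6:82774484-82774524, minus strand, 52 bases before the start): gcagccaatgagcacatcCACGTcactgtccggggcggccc
The Bnip3 window holds the whole palindrome, so its word reads on both strands. The windows of Pfkp and Pfkfb4, whose levels are described below, held no ACGTG and held GCGTG 3 times and 1 time. Plod2 had no window in the table.

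The deposited values are FPKM, that is fragments per length of transcript and per total mapped, which allow levels of different genes to be set side by side. They summed to between 533606 and 629679 per library, correlations between replicates were 0.942 to 0.977, and sequencing depth is unknown, so that no counting error can be given, least of all for members near 1 FPKM. The tumor line was recognisable in every library from the hepatic genes Alb (1819 to 4401 FPKM), Afp (1427 to 3499 FPKM) and Hnf4a (18.4 to 36.5 FPKM). In the control antibody plus GSK343 group 3 libraries, replicates 3, 4 and 5, stood apart by skeletal muscle transcripts: the 18 muscle markers summed to 661, 2731 and 616 FPKM there, against 16.8 to 364 FPKM in the other 16 libraries. None of the markers of muscle, T cells or macrophages was at 0 in every library. Calls that these libraries touch are given with and without them.

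Members were abundant in these tumors. Their median level with control antibody was 36.4 FPKM, against 9.25 FPKM for all genes tested, and 15 of 40 lay in the highest 10% of genes. Glycolytic enzymes led: aldolase A, Aldoa, which splits the sugar, stood at 1138 ± 144 FPKM (SD, n = 4), lactate dehydrogenase A, Ldha, at 1037 ± 91.3 FPKM, and pyruvate kinase, Pkm, at 973 ± 77.5 FPKM. The ranges of these 3 overlapped, and they ranked 72nd, 80th and 87th of 14385 genes. Tpi1 and Pgk1 followed at 538 ± 52.0 and 484 ± 85.3 FPKM. At the other end 8 members were under 10 FPKM, among them the high-affinity glucose transporter Slc2a3 (5.01 ± 0.913 FPKM), carbonic anhydrase Car9 (3.29 ± 0.960 FPKM), the regulatory enzymes Pfkfb3 (2.05 ± 0.629 FPKM) and Pfkfb4 (1.93 ± 0.138 FPKM), and the lysyl hydroxylase Plod2 (1.19 ± 0.594 FPKM). All 40 passed the filter on low values, and 38 had at least 1 FPKM in each of the 19 libraries; Pfkfb3 did in 18 and Plod2 in 13.

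**Figure D1:**
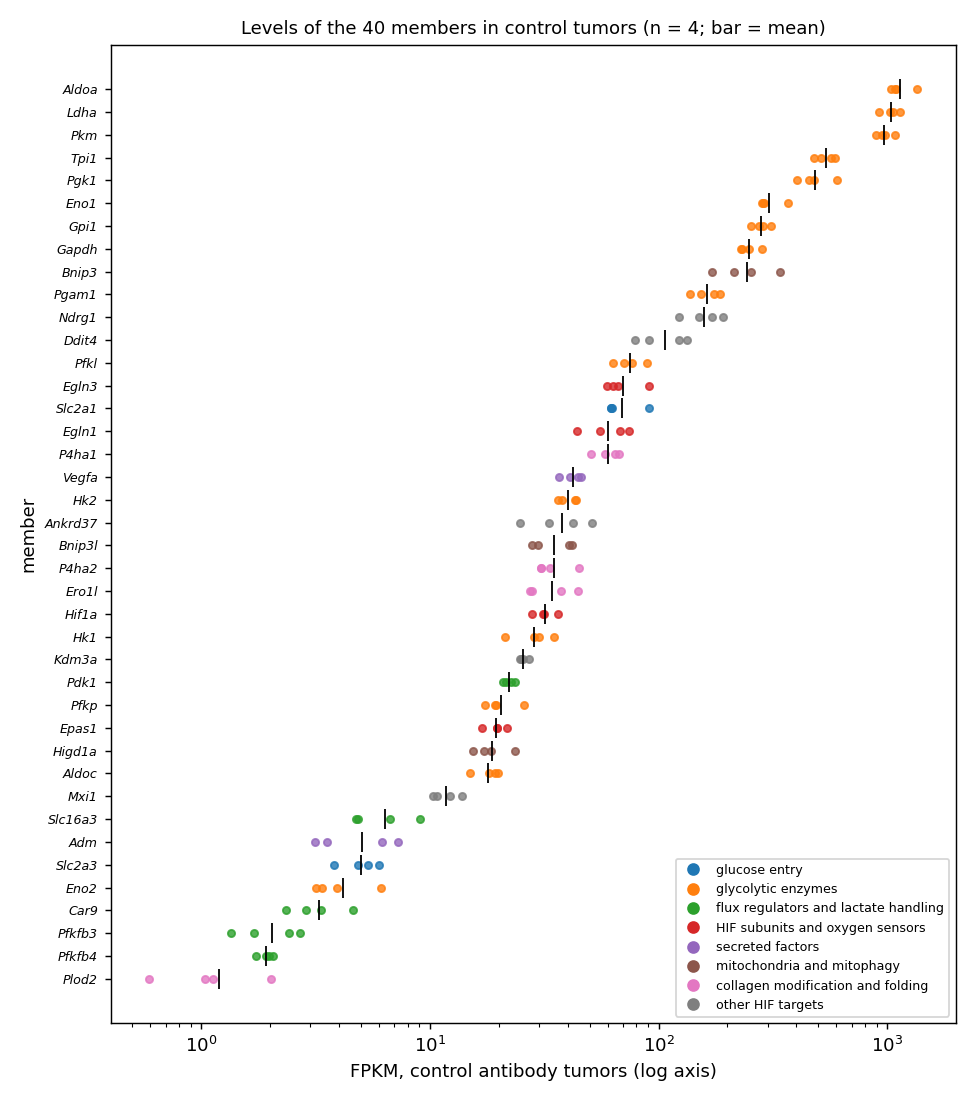
FPKM on a log axis (horizontal) of the 40 members (vertical) in the 4 control antibody tumors. Points are libraries, bars are means and colours are roles; Aldoa, Ldha and Pkm lead, Aldoa at 1138 FPKM, and Plod2 is lowest at 1.19 FPKM.

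The first question of the design was whether inhibiting EZH2 changed these transcripts when the control antibody was given. It left nearly all of them within their spread: 1 of 40 members, Pfkp, rose and 0 fell at an adjusted p under 0.05 (limma, adjusted over 14385 genes), where 5.47% of all genes passed (4.36% higher, 1.11% lower). Among members that share was 2.5%, not above the background. The median log2 change of the members was 0.04, against -0.03 over all genes tested, and 38 of 40 changes had a 95% interval within 1 log2 unit on either side of 0. At an unadjusted p under 0.05 there were 4 members (10%), against 18.9% of all genes. The groups did not overlap for 2 members (5%), Pfkfb4 (higher) and the histone demethylase Kdm3a (lower, -0.11 ± 0.10, adjusted p = 0.608), against 7.58% of all genes.

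Neither glucose transporter passed. Slc2a1, the main glucose transporter of growing cells, was at 62.8, 61.9, 90.7 and 62.2 FPKM with control antibody and at 75.3, 68.7, 81.1, 73.3 and 70.6 FPKM with GSK343 added. Control replicate 3 was the highest of all 9, so the groups overlapped and the log2 change was 0.10 ± 0.12 (adjusted p = 0.714, limma). Slc2a1 made up 93.1% ± 1.74 of the summed FPKM of Slc2a1 and Slc2a3 with control antibody and 94.3% ± 1.19 with GSK343 (SD, n = 4 and 5).

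Of the 15 glycolytic enzymes, the one that rose was Pfkp, the platelet-type subunit of phosphofructokinase, the committing step of glycolysis. Pfkp (ENSMUSG00000021196, chr13:6579768-6648777 of GRCm38, minus strand) was at 19.2, 17.4, 25.7 and 19.5 FPKM with control antibody and at 22.1, 41.5, 45.2, 34.3 and 32.7 FPKM with GSK343. Replicate 1 of the GSK343 group lay within the control range, and the other 4 were above it. The means were 20.5 ± 3.64 and 35.2 ± 8.90 FPKM, a log2 change of 0.73 ± 0.19 (95% interval 0.33 to 1.13, adjusted p = 0.0325, limma). The call was lost without any 1 of 7 of the 9 libraries compared: control antibody replicate 1, 2 or 5 (adjusted p = 0.103, 0.0903 and 0.0888) and GSK343 replicate 2, 3, 4 or 5 (0.0847, 0.0969, 0.0614 and 0.0516). The gene body overlaps that of Pitrm1, and the labels do not state how the authors assigned shared fragments.

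Other cell types moved with this change. Macrophage markers (7 of 8 in the table) summed to 328 to 750 FPKM with control antibody and to 907 to 1357 FPKM with GSK343, and 5 of the 7 rose at the threshold. T cell markers summed to 37.8 to 66.4 FPKM and 79.8 to 217 FPKM, and 7 of 8 rose. The hepatocyte and hepatoma markers summed to 9937 to 14379 FPKM and 8048 to 10213 FPKM, and 3 of 17 fell. The 18 muscle markers summed to 31.7 to 125 FPKM and 66.5 to 2731 FPKM, with 1 rising at the threshold and a median log2 change of 2.37. Without the 3 muscle-rich libraries the Pfkp change was 0.56 (adjusted p = 0.333), and with the muscle score as a covariate it was 0.47 (adjusted p = 0.382). The part of macrophages and T cells in the Pfkp change was not tested, and in such bulk samples a change in the share of a cell type and a change of RNA per cell cannot be told apart.

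The other 14 enzymes gave log2 changes between -0.16 and 0.22, none past the threshold. Ldha, which turns pyruvate to lactate, was at 1064, 922, 1141 and 1023 FPKM with control antibody and at 1061, 947, 956, 1120 and 1156 FPKM with GSK343. The ranges nearly coincided, and the change was 0.01 ± 0.10 (adjusted p = 0.965, limma). Pgk1, the kinase that makes the first ATP of glycolysis, was at 453, 403, 603 and 479 FPKM and at 577, 478, 503, 540 and 589 FPKM, an overlap with a change of 0.16 ± 0.15 (adjusted p = 0.65). Hk2, the inducible hexokinase, was at 37.7, 43.3, 36.4 and 43.6 FPKM and at 57.6, 45.0, 36.2, 39.9 and 38.8 FPKM; replicate 1 was the highest of the GSK343 group, and the change was 0.10 ± 0.12 (adjusted p = 0.744). Abundant enzymes of this pathway, Gapdh among them, have near-identical processed copies in the genome, and the labels do not state how fragments shared with those were handled.

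Among regulators of flux and lactate handling, 0 of 5 passed. The largest change was that of Slc16a3, the transporter MCT4 that exports lactate from glycolytic cells. Slc16a3 stood at 4.75, 6.69, 9.09 and 4.85 FPKM with control antibody and at 5.55, 11.02, 13.9, 17.2 and 7.73 FPKM with GSK343. GSK343 replicates 2, 3 and 4 were above all controls and the other 2 overlapped them; the log2 change was 0.66 ± 0.24 (adjusted p = 0.136, limma). Among the alternatives run it passed only without GSK343 replicate 1 (0.86, adjusted p = 0.0159). Its share of the summed FPKM of Slc16a1 and Slc16a3 was 16.1% ± 4.93 with control antibody and 28.6% ± 9.11 with GSK343. Pfkfb4, which sets the level of the activator fructose 2,6-bisphosphate, was at 1.74, 1.92, 2.07 and 1.98 FPKM and at 2.19, 3.25, 3.15, 2.17 and 2.23 FPKM. These groups did not overlap, yet the change was small on this scale, 0.29 ± 0.11 (adjusted p = 0.142). Car9, which acidifies the space around hypoxic cells and is often used as their marker, was at 3.34, 2.35, 4.59 and 2.87 FPKM and at 7.35, 2.21, 2.13, 2.79 and 3.40 FPKM. Replicate 1 of the GSK343 group was the highest and replicates 2 and 3 were the lowest of these 9, and the change was 0.02 ± 0.23 (adjusted p = 0.984).

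Of the HIF subunits and oxygen sensors 0 of 4 passed. Hif1a was at 28.0, 31.5, 36.5 and 31.4 FPKM with control antibody and at 27.5, 37.1, 45.2, 39.1 and 29.3 FPKM with GSK343, a change of 0.14 ± 0.14 (adjusted p = 0.659, limma). Egln3, a HIF hydroxylase that HIF itself induces, was at 63.5, 59.4, 90.6 and 66.3 FPKM and at 69.2, 66.6, 73.2, 55.3 and 58.8 FPKM, a change of -0.10 ± 0.17 (adjusted p = 0.817). In both genes the 2 groups overlapped. Vegfa, the vessel growth factor, was at 36.7, 41.2, 44.5 and 45.9 FPKM and at 45.9, 32.6, 41.6, 33.7 and 30.0 FPKM. Of its GSK343 libraries 3 lay below all controls, and the change was -0.20 ± 0.16 (adjusted p = 0.544). Mitochondrial and mitophagy genes (Bnip3, Bnip3l, Higd1a) changed by -0.05 to 0.21, collagen-modifying and folding genes by -0.12 to 0.33, and the other HIF targets by -0.18 to 0.02, with 0 of 12 past the threshold in these 3 roles. Plod2, which hydroxylates collagen lysines for cross-linking, gave 0.33 ± 0.14 (adjusted p = 0.193), and without control replicate 3, its highest control at 2.01 FPKM, 0.50 (adjusted p = 0.021).

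**Figure D2:**
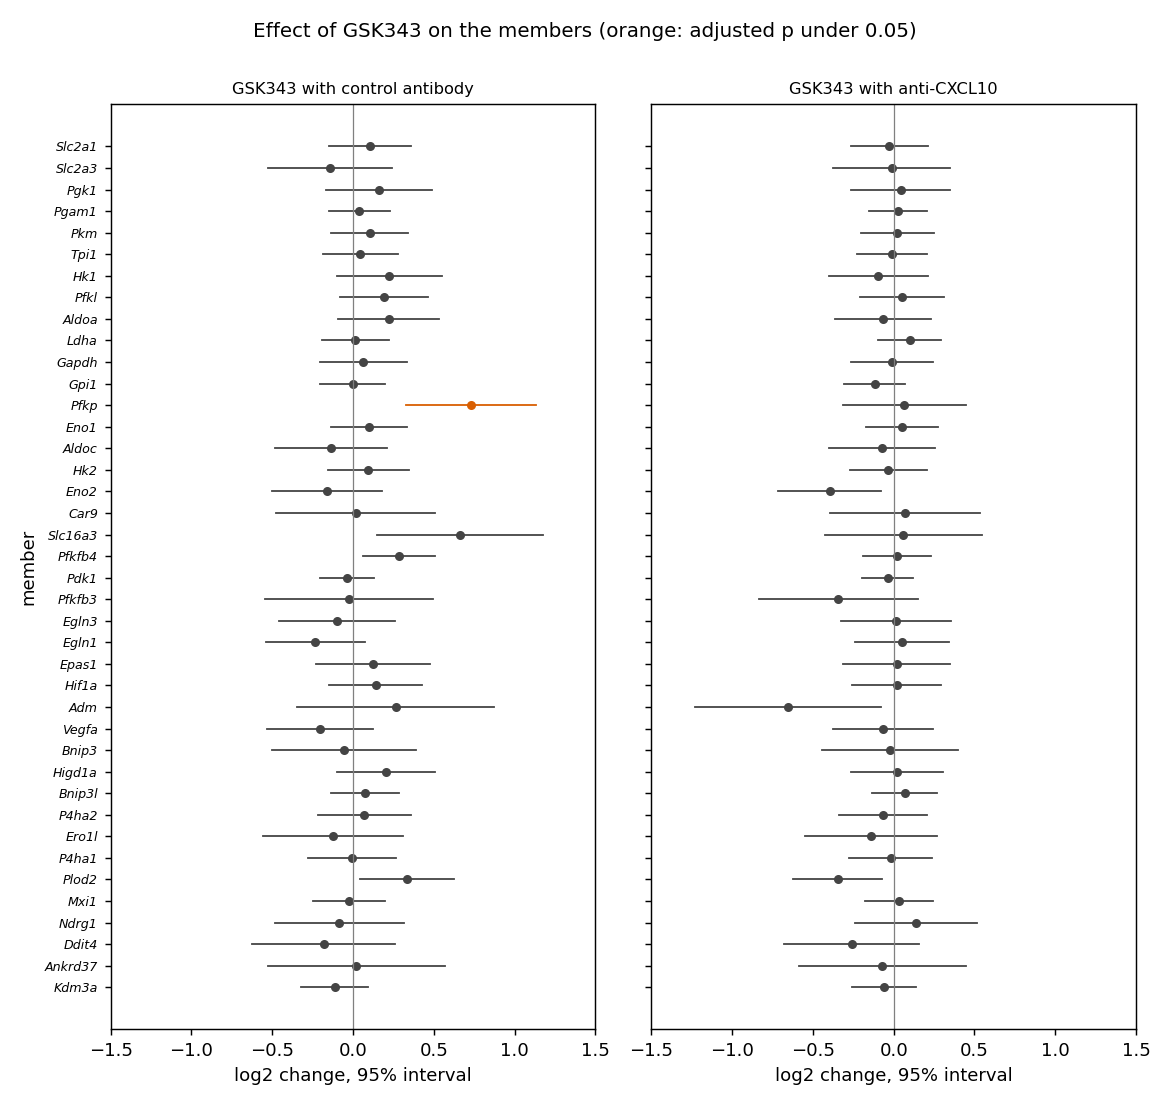
Log2 changes with 95% intervals (horizontal) of the 40 members (vertical) for GSK343 given with control antibody (left) and with anti-CXCL10 (right). Orange marks an adjusted p under 0.05; Pfkp at 0.73 on the left is the only such member, and most others straddle 0.

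Next came the same drug comparison in tumors given anti-CXCL10. There 0 of 40 members passed, and 0 of 14385 genes did (0%); at an unadjusted p under 0.05 there were 3 members (7.5%), against 418 genes (2.91%). The members' changes ran from -0.65 to 0.14 with a median of -0.01, against 0.01 for all genes, and 39 of 40 had a 95% interval within 1 log2 unit of 0. Pfkp was at 22.5, 23.1, 30.2, 29.6 and 19.2 FPKM with anti-CXCL10 and at 20.6, 28.3, 29.8, 32.0 and 20.4 FPKM with GSK343 added. The ranges nearly coincided, and the change was 0.07 ± 0.18 (adjusted p = 0.9997, limma). The change in Pfkp differed between the 2 antibodies by -0.66 ± 0.26, which did not pass (adjusted p = 0.279), so a difference in its response was not shown.

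The 3 members with the smallest p in this comparison were Plod2, Eno2 and Adm, with negative changes that did not pass. Plod2 (ENSMUSG00000032374, chr9:92542223-92608428) was at 1.11, 1.48, 1.11, 1.72 and 1.18 FPKM with anti-CXCL10 and at 0.731, 0.811, 0.970, 0.790 and 0.780 FPKM with GSK343. It was the only member whose groups did not overlap here (2.5% of members, against 0.396% of genes), and its change was -0.35 ± 0.13 (unadjusted p = 0.0161, adjusted p = 0.9997, limma). Eno2, the neuronal enolase, was at 3.37, 4.58, 3.89, 4.70 and 2.70 FPKM and at 2.88, 3.66, 1.995, 2.28 and 2.60 FPKM. Its groups overlapped, with a change of -0.40 ± 0.15 (adjusted p = 0.9997). Adm, the vasodilator adrenomedullin, was at 4.95, 6.69, 6.33, 9.16 and 2.42 FPKM and at 2.19, 4.17, 5.11, 3.42 and 1.72 FPKM. Replicate 5 of anti-CXCL10 lay among the GSK343 values, and the change was -0.65 ± 0.27 (adjusted p = 0.9997).

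The 8 members central to the pathway did not pass in these tumors either. Slc2a1 was at 84.2, 76.8, 80.9, 90.9 and 62.6 FPKM with anti-CXCL10 and at 75.9, 78.8, 83.7, 83.8 and 64.8 FPKM with GSK343 added, a change of -0.03 ± 0.11. Hk2 was at 34.9, 41.3, 41.2, 35.2 and 29.5 FPKM with anti-CXCL10 and at 36.2, 35.3, 36.6, 32.0 and 36.6 FPKM with GSK343 added, a change of -0.03 ± 0.11. In both genes the groups overlapped, and replicate 5 of anti-CXCL10 was the lowest library. Pgk1 was at 545, 424, 601, 545 and 362 FPKM with anti-CXCL10 and at 533, 576, 516, 544 and 369.6 FPKM with GSK343 added, a change of 0.04 ± 0.15. Ldha was at 1062, 851, 1099, 1049 and 930.2 FPKM with anti-CXCL10 and at 1060, 1137, 1087, 1146 and 912 FPKM with GSK343 added, a change of 0.10 ± 0.09. For Pgk1 replicate 5 was the lowest of each group, and for Ldha the groups overlapped over most of their range. Hif1a was at 36.4, 40.7, 33.1, 30.0 and 30.7 FPKM with anti-CXCL10 and at 30.5, 34.4, 42.5, 30.3 and 35.7 FPKM with GSK343 added, a change of 0.02 ± 0.13. Egln3 was at 76.5, 75.2, 77.9, 67.9 and 46.6 FPKM with anti-CXCL10 and at 74.5, 76.0, 85.3, 64.4 and 48.1 FPKM with GSK343 added, a change of 0.02 ± 0.16. The hydroxylase again had its lowest value of each group in replicate 5, which was not so for Hif1a. Vegfa was at 53.5, 56.6, 40.6, 40.5 and 29.6 FPKM with anti-CXCL10 and at 43.3, 41.5, 44.3, 36.0 and 40.5 FPKM with GSK343 added, a change of -0.07 ± 0.15. Car9 was at 3.28, 4.31, 5.42, 4.51 and 2.88 FPKM with anti-CXCL10 and at 5.05, 4.52, 4.23, 3.68 and 3.89 FPKM with GSK343 added, a change of 0.07 ± 0.22. Vegfa spread more widely with anti-CXCL10 alone than with GSK343 added, and the Car9 groups overlapped. The adjusted p of these 8 was 0.9997 throughout (limma).

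Whether the antibody altered the response to GSK343 was tested directly as an interaction. No member passed (0 of 40), where 9 genes (0.0626%) did; 3 members (7.5%) and 12.9% of genes had an unadjusted p under 0.05. The smallest p among members was that of Plod2, whose change was lower by -0.68 ± 0.19 with anti-CXCL10 than with control antibody (adjusted p = 0.141, limma). This value depended on 1 library: without control antibody replicate 3 it was -0.84 (adjusted p = 0.0334). Adm gave -0.92 ± 0.40 (adjusted p = 0.332). For 35 of 40 members the 95% interval of the interaction lay within 1 log2 unit of 0, fewer than in the other 4 comparisons (38 to 40).

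Blocking CXCL10 without GSK343 gave no call either: 0 of 40 members and 2 of 14385 genes (0.0139%), with 1 member (2.5%) and 6.81% of genes at an unadjusted p under 0.05. Changes of the members lay between -0.26 and 0.35, and the groups of all 40 overlapped, against 2.53% of genes without overlap. The smallest p was that of Pdk1, the kinase that inhibits pyruvate dehydrogenase and so limits the oxidation of pyruvate. Pdk1 was at 20.9, 22.5, 23.6 and 21.6 FPKM with control antibody and at 24.7, 28.9, 25.6, 21.6 and 24.9 FPKM with anti-CXCL10, a change of 0.17 ± 0.08 (adjusted p = 0.717, limma). Gpi1, which isomerises glucose 6-phosphate, was at 287, 275, 311 and 255 FPKM and at 373, 285, 341, 333 and 276 FPKM. Hk1, the constitutive hexokinase, was at 29.9, 21.3, 34.8 and 28.5 FPKM and at 36.2, 44.1, 34.0, 31.0 and 27.9 FPKM. Both overlapped, with changes of 0.18 ± 0.09 (adjusted p = 0.737) and 0.27 ± 0.15 (adjusted p = 0.752).

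Among tumors given GSK343, those with anti-CXCL10 had lower Plod2 and Pfkfb4 than those with control antibody. These 2 of 40 members fell and 0 rose, where 10.1% of all genes passed (6.64% lower, 3.48% higher), so the members' share, 5%, was not above the background. At an unadjusted p under 0.05 there were 9 members (22.5%), against 25.7% of genes, and the members' median change was -0.01 against 0.03 for all genes. This comparison shares its control antibody plus GSK343 libraries with the first one.

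Plod2 was at 1.74, 1.54, 1.79, 1.86 and 1.53 FPKM with control antibody plus GSK343 (1.69 ± 0.150, SD, n = 5) and at 0.816 ± 0.0909 FPKM with anti-CXCL10 plus GSK343, in the 5 libraries given above. The groups did not overlap (2 members, 5%, against 8.77% of genes), and the change was -0.57 ± 0.13 (adjusted p = 0.0117, limma). With anti-CXCL10 plus GSK343 it was under 1 FPKM in every library, near the bottom of what was tested. Pfkfb4 (ENSMUSG00000025648, chr9:108991902-109032197) was at 1.52, 1.94, 1.70, 1.51 and 1.66 FPKM with anti-CXCL10 plus GSK343, a mean of 1.66 ± 0.174 FPKM, against 2.60 ± 0.548 FPKM with control antibody plus GSK343. Its highest library with anti-CXCL10 plus GSK343, 1.94, was under the lowest with control antibody plus GSK343, 2.17, and the change was -0.42 ± 0.10 (adjusted p = 0.0142). Both calls were kept in each of 19 fits that left out 1 library. Without the 3 muscle-rich libraries the changes were -0.54 and -0.47 with adjusted p = 0.111 and 0.0569.

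The next smallest p in that comparison was that of Slc16a3, which was at 5.52, 5.98, 7.32, 6.80 and 4.20 FPKM with anti-CXCL10 and at 5.14, 7.77, 6.53, 5.75 and 5.90 FPKM with anti-CXCL10 plus GSK343. The latter lay -0.66 ± 0.23 from control antibody plus GSK343 (adjusted p = 0.0763, limma), and -0.86 (adjusted p = 0.0107) without replicate 1 of that group. Adm, at 4.45, 6.31, 6.17, 5.84 and 7.28 FPKM with control antibody plus GSK343, gave -0.75 ± 0.27 (adjusted p = 0.0906). Pfkp gave -0.39 ± 0.18 (adjusted p = 0.176), and -0.55 (adjusted p = 0.0355) without replicate 1 of control antibody plus GSK343. Car9 gave 0.30 ± 0.22 (adjusted p = 0.415), and 0.55 (adjusted p = 0.0352) without the same library, where it was 7.35 FPKM. Hk2 gave -0.27 ± 0.11 (adjusted p = 0.133), and -0.52 (adjusted p = 0.0442) without the 3 muscle-rich libraries. Between these GSK343 groups T cell markers fell for 7 of 8, from 79.8 to 217 FPKM in sum to 56.7 to 84.6 FPKM, and macrophage markers for 5 of 7, from 907 to 1357 FPKM to 520 to 707 FPKM; fibroblast markers fell for 3 of 7, from 1595 to 2176 FPKM to 1416 to 1534 FPKM. Neutrophil markers fell for 2 of 4, from 35.2 to 135 FPKM to 40.9 to 70.5 FPKM. Hepatocyte and hepatoma markers rose for 5 of 17, from 8048 to 10213 FPKM to 11164 to 15158 FPKM, with no overlap of the sums. The 18 muscle markers, of which 1 fell, went from 66.5 to 2731 FPKM to 27.2 to 142 FPKM. Their part in the changes of Plod2 and Pfkfb4 was not tested.

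**Figure D3:**
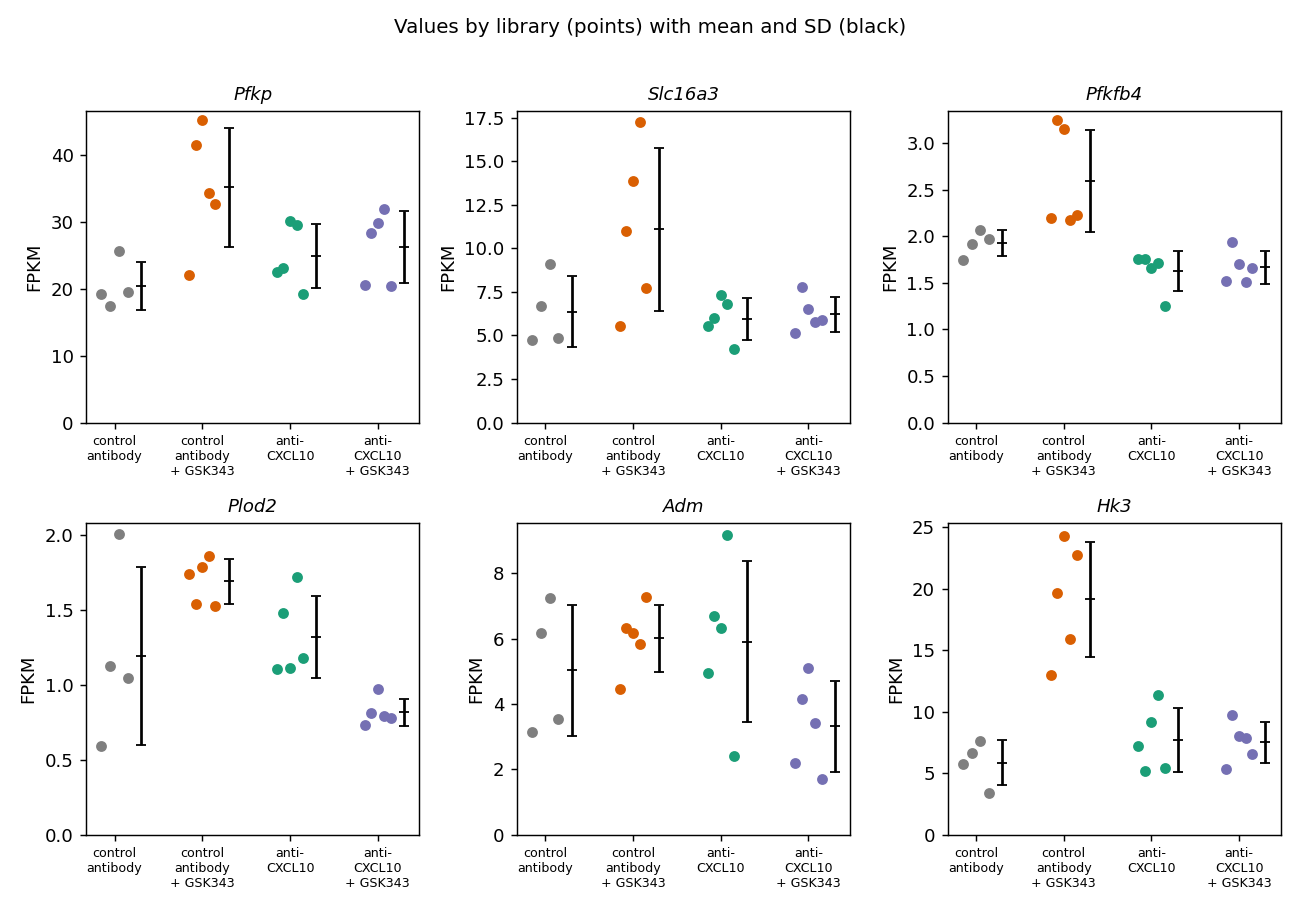
FPKM (vertical, from 0) by group for Pfkp, Slc16a3, Pfkfb4, Plod2, Adm and Hk3; points are libraries and black marks are the mean and SD. Hk3 and Pfkfb4 in control antibody plus GSK343 lie above all libraries of the other groups, while Pfkp and Slc16a3 overlap through 1 or 2 low libraries.

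Genes of the same pathway outside the 40 add to the picture of which isoforms carried each step. Of 13 tested other isoforms of glycolysis, 2 rose with GSK343 and control antibody, where 4.36% of all genes rose. Hk3, a hexokinase of myeloid cells, rose from 5.78, 6.68, 7.59 and 3.40 FPKM to 13.0, 19.6, 24.3, 15.9 and 22.8 FPKM. All 5 libraries with GSK343 were above all 4 controls, and the change was 1.56 ± 0.23 (adjusted p = 0.00209, limma). Ldhb, the lactate dehydrogenase subunit of oxidative tissues, rose by 1.06 ± 0.27 (adjusted p = 0.0261), from 1.93 ± 0.298 to 5.65 ± 2.83 FPKM. It was at 2.09, 2.02, 2.11 and 1.48 FPKM with control antibody and at 1.64, 5.82, 6.90, 9.28 and 4.58 FPKM with GSK343. Replicate 1 of the GSK343 group thus lay within the control range, and the Ldhb call was kept in 13 of 19 fits that left out 1 library. Without the 3 muscle-rich libraries the changes were 1.35 (adjusted p = 0.0748) for Hk3 and 0.54 (adjusted p = 0.404) for Ldhb. With anti-CXCL10 Hk3 was at 7.67 ± 2.61 FPKM and, with GSK343 added, at 7.52 ± 1.66 FPKM. The interaction for Hk3 was -1.56 ± 0.32 (adjusted p = 0.0809), and between the GSK343 groups Hk3 was lower with anti-CXCL10 by -1.23 ± 0.22 (adjusted p = 0.00331) and Ldhb by -1.04 ± 0.25 (adjusted p = 0.0152). Without the 3 muscle-rich libraries these 2 differences were -1.02 (adjusted p = 0.0671) for Hk3 and -0.52 (adjusted p = 0.275) for Ldhb.

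Hk3 made up 7.64% ± 2.30 of the summed FPKM of 4 hexokinase genes with control antibody and 19.8% ± 5.03 with GSK343, while Hk1 and Hk2 together held most of the rest in every library. Pfkp made up 17.7% ± 0.968 of 3 phosphofructokinase genes with control antibody, 24.2% ± 5.50 with GSK343, 20.7% ± 1.73 with anti-CXCL10 and 21.3% ± 2.84 with both. Ldha remained at 99.5% to 99.8% of the lactate dehydrogenase FPKM in group means. The muscle isoforms Pfkm, Eno3 and Pgam2 did not pass (adjusted p = 0.568, 0.746 and 0.203 with GSK343 and control antibody), yet in replicate 4 of that group, the library richest in muscle markers, they reached 43.6, 188 and 45.2 FPKM. Control antibody libraries held at most 20.8, 75.2 and 2.12 FPKM of them. In that library Eno1 was 64.1% of the enolase FPKM, against 78.2% to 84.8% with control antibody.

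**Figure D4:**
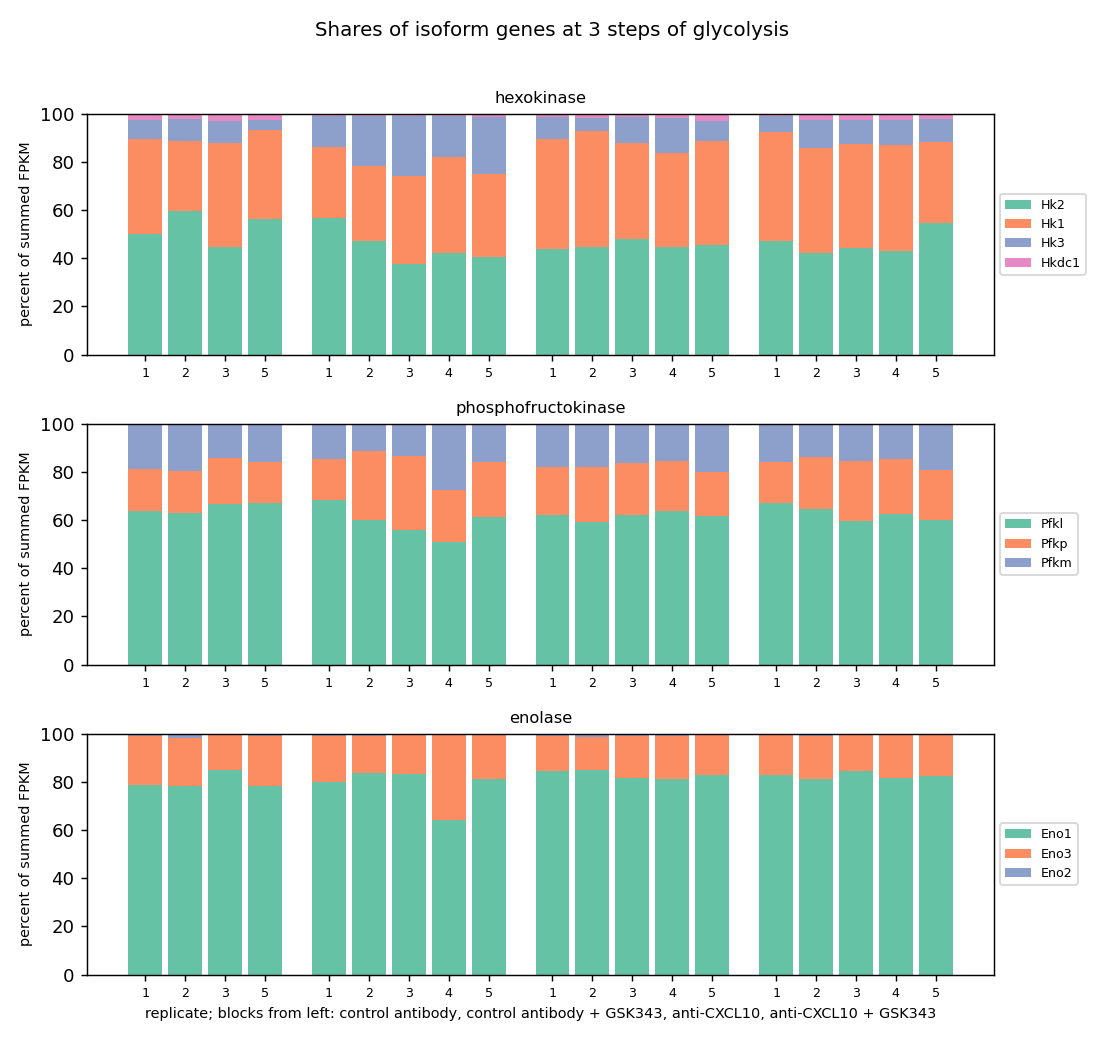
Percent of summed FPKM (vertical) of the isoform genes of hexokinase, phosphofructokinase and enolase in each library (bars, replicate numbers below, the 4 groups as blocks). Hk3 takes 19.8% on average in the second block against 7.64% in the first, and replicate 4 of the second block has the largest Pfkm and Eno3 shares.

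With GSK343 and control antibody 4.36% of all genes rose and 1.11% fell, and of 27 tested other hypoxia-induced genes 1 rose and 0 fell. It was Edn1, the vasoconstrictor endothelin, which went from 1.20 ± 0.482 to 3.36 ± 1.61 FPKM (0.94 ± 0.23, adjusted p = 0.0236, limma; 0.86, adjusted p = 0.168 without the muscle-rich libraries). Between the GSK343 groups 3 of the 27 were lower with anti-CXCL10 and 1 higher, where 6.64% of all genes were lower and 3.48% higher. Flt1, a VEGF receptor, fell from 10.5 ± 4.17 to 4.29 ± 1.81 FPKM (adjusted p = 0.0115), Lox, which cross-links collagen, from 14.0 ± 2.99 to 6.37 ± 2.08 FPKM (adjusted p = 0.0142) and Edn1 to 1.23 ± 0.275 FPKM (adjusted p = 0.0151). Vldlr, a lipoprotein receptor, rose from 14.6 ± 1.75 to 20.8 ± 2.95 FPKM (adjusted p = 0.027). Between the same groups the 6 endothelial markers in the table went from 33.8 to 50.5 FPKM in sum to 22.4 to 35.4 FPKM. None of these markers passed (median log2 change -0.51), and the part of endothelial cells in the changes of Flt1 and Edn1 was not tested. Of 11 glycogen genes, the liver phosphorylase Pygl rose from 5.54 ± 1.87 to 10.1 ± 2.41 FPKM with GSK343 and control antibody (0.78 ± 0.21, adjusted p = 0.0379; 0.69, adjusted p = 0.289 without the muscle-rich libraries) and was lower, at 5.69 ± 1.37 FPKM, with anti-CXCL10 plus GSK343 (adjusted p = 0.0293). With GSK343 and control antibody, the calls of Edn1 and Pygl were kept in 15 and 13 of 19 fits that left out 1 library. Between the GSK343 groups those of Vldlr and Pygl were kept in 14 and 13, and those of Flt1, Lox and Edn1 in all 19. In that comparison the log2 changes were -1.12 for Flt1, -1.05 for Lox, -0.90 for Edn1, 0.48 for Vldlr and -0.72 for Pygl. Without the muscle-rich libraries, which leaves 2 libraries of control antibody plus GSK343, they were -1.20 (adjusted p = 0.0548), -0.86 (0.165), -0.82 (0.0902), 0.54 (0.0981) and -0.63 (0.194) in the same order. With the muscle score as a covariate they were -1.02 (adjusted p = 0.113, limma), -1.12 (0.0812), -0.68 (0.178), 0.44 (0.170) and -0.60 (0.216). None was past the threshold in either fit. No gene passed in any of the 5 comparisons among 14 partners and degradation factors of HIF, 4 gluconeogenic genes and 12 genes of pyruvate dehydrogenase and its control.

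The members not yet given in full covered these ranges over the 19 libraries, none of them past the threshold in any of the 5 comparisons. Of the enzymes, Aldoa was at 912 to 1475 FPKM, Pkm at 792 to 1184 FPKM, Tpi1 at 421 to 629.6 FPKM, Eno1, the common enolase, at 265 to 367 FPKM, Gapdh at 205 to 311 FPKM, Pgam1 at 137 to 186 FPKM, Pfkl, the liver subunit of phosphofructokinase, at 59.3 to 90.2 FPKM, and Aldoc, the brain aldolase, at 12.3 to 25.1 FPKM. Highest and lowest library thus lay closer together in these enzymes than in the low regulator Pfkfb3, at 0.985 to 4.65 FPKM, or the transporter Slc2a3, at 2.44 to 5.99 FPKM. Epas1, which encodes HIF2 alpha, was at 10.8 to 26.3 FPKM and the oxygen sensor Egln1 at 42.4 to 74.0 FPKM. Of the mitophagy receptors, Bnip3 was at 166 to 344 FPKM and Bnip3l at 27.9 to 41.8 FPKM, and Higd1a, a mitochondrial protein, at 11.8 to 25.1 FPKM. Bnip3 spread more than its paralogue, with its highest value in control antibody plus GSK343 replicate 1. The prolyl 4-hydroxylases of collagen, P4ha1 and P4ha2, were at 50.4 to 77.0 FPKM and 27.9 to 45.0 FPKM, and the disulfide oxidase Ero1l at 23.5 to 52.0 FPKM. Ndrg1, a stress-induced gene, was at 102 to 224 FPKM, Ddit4, an inhibitor of mTORC1, at 62.5 to 135 FPKM, Mxi1, a MYC antagonist, at 9.41 to 14.1 FPKM, Kdm3a at 21.6 to 33.1 FPKM and Ankrd37 at 20.8 to 54.0 FPKM.

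Many members departed from their group means together in single libraries. In control antibody replicate 3, 36 of 40 members were above their group mean and 30 were the highest of their group, with a median departure of 0.23 log2 units. In anti-CXCL10 replicate 5, 1 of 40 was above the mean and 25 were the lowest (median -0.25), and in anti-CXCL10 plus GSK343 replicate 5, 26 were the lowest (median -0.23). Over all genes tested the median departures of these libraries were 0.00, -0.01 and 0.01. FPKM is scaled to the total of each library, which holds such a median near 0. It therefore cannot show whether other sets of genes shifted as the members did. The median within-group SD of the members was 0.23 log2 units, against 0.21 for all genes, from 0.10 for Pdk1 to 0.46 for Adm.

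Over the 19 libraries, the departures of the members correlated with a mean pairwise r of 0.29 (0.42 among the 15 glycolytic enzymes), against 0.0099 for pairs of all genes. These points share libraries and their group means, and the values are a description. Egln3 (mean r with the other members 0.50), Pgk1 (0.48) and Slc2a1 (0.48) followed the rest most closely. Pfkfb3 (0.00), Slc2a3 (0.00) and Eno2 (0.01) did not follow them. Without the 3 libraries named above, which were picked after their values were seen, the mean r of the members was 0.0452 over 16 libraries, against 0.0112 for all genes. These 3 libraries were picked for the members' departures, so a lower r without them follows in part from the choice.

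The same libraries differed in other markers. Control antibody replicate 3 had 2644 FPKM of the 5 erythroid markers, at the top of its group's range of 179 to 2644 FPKM, and anti-CXCL10 replicate 5 and anti-CXCL10 plus GSK343 replicate 5 had 496 and 381 FPKM, the lowest of their groups (up to 4515 and 3488 FPKM). Other libraries did not follow this order. Anti-CXCL10 replicate 1 had the 4515 FPKM with a median departure of the members of 0.06. Anti-CXCL10 plus GSK343 replicate 2 had 414 FPKM with 0.11, the highest departure of its group. Control replicate 3 was also at the top of its group in macrophage (750 FPKM), T cell (66.4 FPKM) and neutrophil markers (126 FPKM). In the 2 libraries numbered 5 the hepatocyte and hepatoma markers, at 15517 and 15158 FPKM, were the highest of their groups. In control replicate 3 they were at 12528 FPKM, within its group's range of 9937 to 14379 FPKM and not at its end. The part of blood, immune or tumor cell content in the members' shift was not tested.

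**Figure D5:**
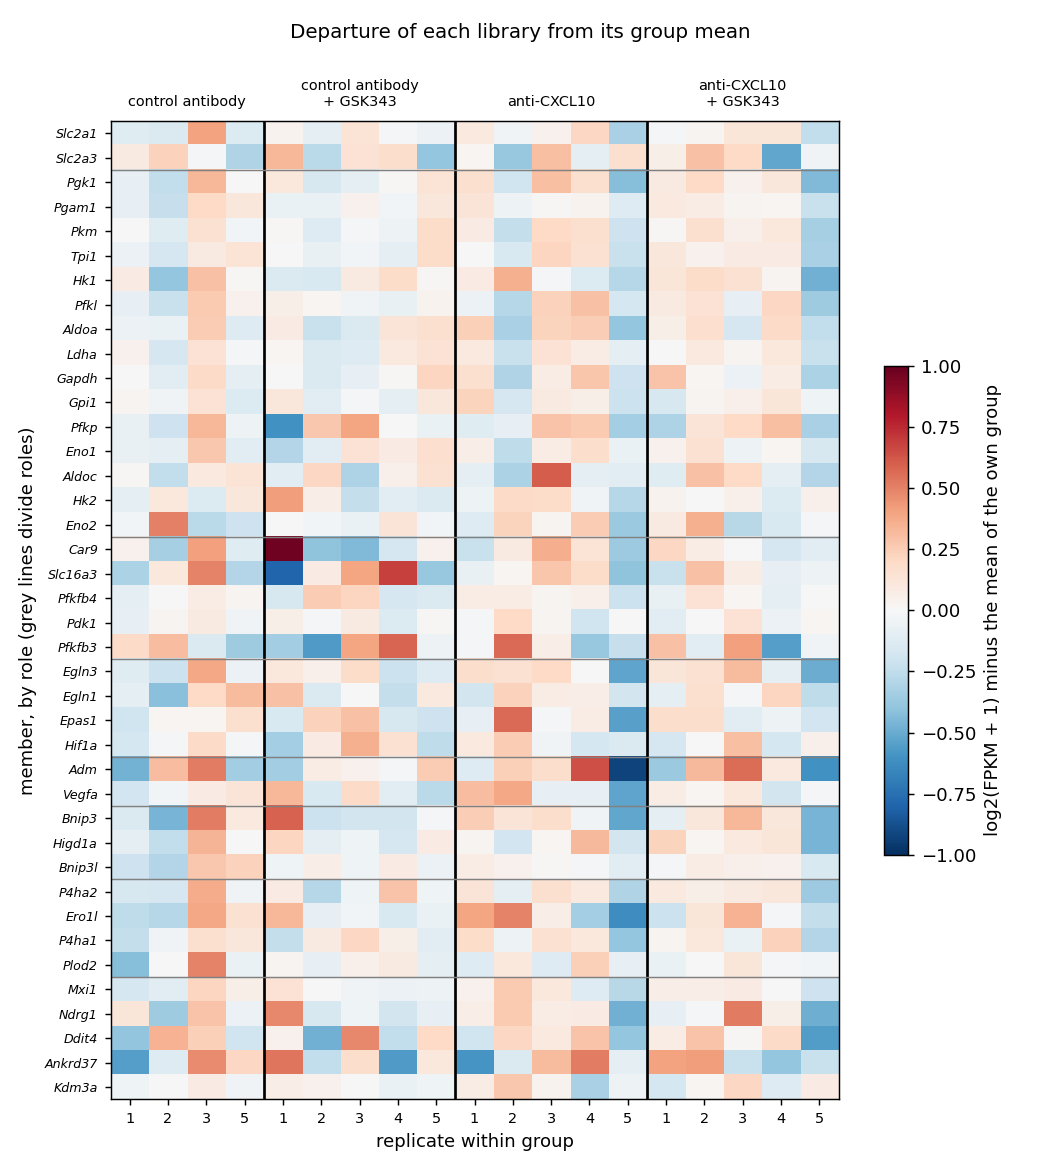
Departure of log2(FPKM + 1) from the mean of the own group (colour, with the scale ending at 1 on both sides) for the 40 members (vertical, by role) in the 19 libraries (horizontal). Control antibody replicate 3 is red down nearly the whole column, and replicate 5 of both anti-CXCL10 groups is blue.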

How the data were processed

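The authors deposited FPKM per gene, a unit inferred here from the values (length-weighted column sums varied by 0.79%, plain sums by 4.06%). The tools named per the submitters' processing notes are StringTie 1.3.3b, HTSeq 0.6.0, HISAT2 2.1.0, TopHat2 2.1.0 and Trimmomatic 0.33 (builds GRCm38 and mm10), with no role or strand setting. No whole-read steps were found, so depth is unknown. Rows of 1 gene ID were added (14646 rows, 14633 genes), and genes with at least 1 FPKM in at least 5 libraries were tested (14385). Values were tested as log2(FPKM + 1), which understates changes of low genes, with limma 3.58.1 (R 4.3.3; trend, robust) on 4 group means over 19 libraries, in 5 comparisons, with Benjamini-Hochberg adjustment; every adjusted p is from this test. The test was checked on simulated data. Coordinates are the deposited table's; promoter words are from RefSeq.

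Members and gene lists were chosen with earlier results of these data known. Library values, not always of all 4 groups, are given for members past the threshold, the 3 smallest p per comparison and 8 canonical members. For pathway lists, up to 4 genes past the threshold and 3 muscle isoforms are given, most of them by group means or single libraries. Any other gene named illustrates a range. The result of 1 gene that meets these rules is not reported here. Alternatives were another pseudocount, 2 other filters, 2 other scalings, a replicate block and muscle corrections. Further ones were a fit without the trend and robust settings, the compared groups alone and leaving out each library. For the correlation, 1 more was chosen after seeing the data.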

Additional observations from a re-analysis of the deposited data

Results flagged for a closer look

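In 9 of 112 sets of libraries examined (28 named genes in 4 groups), 1 library stood apart from its group by a gap large against the group's range; chance gives about 1 in 20. Of these, 5 lie in the libraries in which most members shifted together, in the same direction. These 5 genes are members whose values helped to mark those libraries, so this agreement is partly built in. Slc2a1 in control antibody replicate 3 was 90.7 FPKM against 61.9 to 62.8 (gap over range 0.962). In anti-CXCL10 replicate 5, Egln3 was 46.6 FPKM against 67.9 to 77.9 (0.733) and Pfkfb4 1.25 against 1.66 to 1.76 (0.827). In anti-CXCL10 plus GSK343 replicate 5, Pgk1 was 370 FPKM against 516 to 576 (0.752) and Hk1 22.7 against 32.6 to 36.4 (0.763). Eno3 in control antibody replicate 3 was low, at 62.3 FPKM against 73.5 to 75.2 (0.882), and so unlike the members in that library. The others were Hk2 in anti-CXCL10 plus GSK343 replicate 4 (32.0 FPKM against 35.3 to 36.6, 0.745), Edn1 in replicate 3 of the same group (1.72 against 1.03 to 1.17, 0.774) and Ldhb in control antibody replicate 5 (1.48 against 2.02 to 2.11, 0.873).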

How the results depend on the processing

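No direction of a called value was reversed in any alternative run. With GSK343 and control antibody, members past the threshold were 0 (main 1) without the 3 muscle-rich libraries, with the muscle covariate and with the compared groups alone; all genes were 15, 6 and 233 (main 787). Between the GSK343 groups, members past the threshold were 0 with the filter of 5 FPKM, which removes Plod2 and Pfkfb4, 1 without the muscle-rich libraries, 0 with the covariate and 1 with the compared groups alone (main 2); all genes were 497 without the muscle-rich libraries and 122 with the covariate (main 1456). For the interaction, all genes were 1 and 0 under the 2 muscle settings (main 9). For anti-CXCL10 without GSK343, they were 0 without the muscle-rich libraries and 1 with the compared groups alone (main 2). That 1 gene was higher with anti-CXCL10, while the 2 main calls were lower, so neither main call was kept there. Some of these settings use fewer libraries or genes. The muscle covariate keeps all 19 libraries and the same genes, but its score differed between groups. It ran from 1.88 to 6.43 with control antibody plus GSK343 and from 1.16 to 2.45 with control antibody. The covariate and the group difference are therefore partly the same and cannot be fully told apart. The causes of these changes were not tested. Leaving out 1 library gave, in the order of the report, 0 to 2, 0 to 0, 0 to 1, 0 to 0 and 2 to 5 members, and 299 to 1389, 0 to 1, 0 to 476, 0 to 2 and 837 to 1829 genes. The mean correlation among members fell from 0.29 to 0.0452 without the 3 libraries standing apart, which were picked for the members' departures.

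With the replicate number as a block, 4 members passed between the GSK343 groups (Slc16a3, adjusted p = 0.0206, and Adm, 0.0315, added), 57 genes in the interaction and 0 for anti-CXCL10 without GSK343. Whether the numbers pair the samples was not settled. Over 18 pairs the correlations of same-numbered libraries ran from -0.182 to 0.318, and 8 were over 0.1. In 7 pairs the own number matched best among the 5 libraries of the other group. Keratinocyte markers were highest in replicate 2 of each of the 4 groups (484, 311, 274 and 136 FPKM). Unknown depth limits the low members, Plod2, Pfkfb3 and Pfkfb4 most.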
